A study of Komagataella phaffii GS115 with 9 samples.

Results

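The genes *FLD1*, *FGH1* and *FDH1* encode the enzymes of formaldehyde dissimilation in the methylotrophic yeast *Pichia pastoris* (*Komagataella phaffii*), and they are 3 of the 5557 features in the table. They were chosen by locus tag: gene-PP7435_CHR3-0140 for *FLD1*, gene-PP7435_CHR3-0312 for *FGH1* and gene-PP7435_CHR3-0238 for *FDH1*, all on chromosome 3. The table carries the tags without gene names, so the names came with the choice of the tags and were not checked against sequence. RNA was taken from cell pellets after 60 h of flask fermentation in BMGY/BMMY medium. BMGY holds glycerol, and BMMY holds methanol as the inducer and the carbon source. G14_37 is the oxidative and thermal stress cross-tolerant mutant induced at 37 °C, G14_28 is the same mutant induced at 28 °C, and Parent_28 is its parent (WT) induced at 28 °C, with 3 libraries per group. All groups carry the lipase gene *RCL* under the methanol-inducible *AOX1* promoter. The mutant is 1 evolved strain, and no library of the parent at 37 °C was analysed here.

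Methanol is first oxidised by alcohol oxidase in the peroxisome, which yields formaldehyde and hydrogen peroxide. Formaldehyde is then either assimilated into sugar phosphates by dihydroxyacetone synthase or oxidised to carbon dioxide in the cytosol. In the second route, formaldehyde joins glutathione to form S-(hydroxymethyl)glutathione, which Fld1 (formaldehyde dehydrogenase) oxidises to S-formylglutathione with the release of NADH. Fgh1 (S-formylglutathione hydrolase) splits this product into formate and glutathione, and Fdh1 (formate dehydrogenase) oxidises formate to carbon dioxide with a further NADH. The pathway removes a toxic intermediate and supplies reducing power, at the cost of carbon that could have been assimilated.

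The values have the form of FPKM, in which the reads of a gene are set against its length and the size of the library, so levels of different genes can be compared per length. Whole reads were recovered from the steps between values, which gave 13925937 to 15945444 reads per library for G14_37, 13131105 to 13781380 for G14_28 and 13655253 to 13998339 for Parent_28. On each of the 3 genes there were at least 30965 reads per library, so counting error was at most 0.568% of a value, which was well below the spread between replicates except for *FLD1* in Parent_28. Replicate 1 of G14_37 stood apart. Its Pearson correlation across genes with the other G14_37 libraries was 0.986 and 0.988, against 0.993 between the libraries of replicates 2 and 3, and its highest feature reached 30934 FPKM, against 14490 and 14433 FPKM in the others. In bulk RNA, fewer cells that express a gene and less RNA per cell cannot be told apart.

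The 3 genes were among the most abundant transcripts in every library, and the order of their levels depended on the group. In G14_28 and Parent_28, *FDH1* was highest, *FLD1* second and *FGH1* lowest in each of the 6 libraries. In G14_37, *FLD1* was highest and *FGH1* lowest in each of the 3 libraries, and *FDH1* lay between them. *FDH1* ranked 14 to 16 among all features in G14_37, 3 to 4 in G14_28 and 2 in every Parent_28 library. *FLD1* held its rank, at 11 to 13 in G14_37, 11 in G14_28 and 12 to 14 in Parent_28. *FGH1* ranked 20 to 21 in G14_37, against 29 to 33 in G14_28 and 29 to 31 in Parent_28. A rank compares features within a library, and a kept or better rank does not mean a kept or higher level. The 115 features with a mean of at least 1000 FPKM over all 9 libraries had a median log2 fold change of -0.87 between G14_37 and G14_28. Most of these libraries are at 28 °C, so this choice favours features that are high there. Summed over the 3 genes, the share of all recovered reads was 1.12% ± 0.14 in G14_37, 2.25% ± 0.096 in G14_28 and 2.66% ± 0.054 in Parent_28 (SD, n = 3 each).

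*FLD1*, the entry step of the pathway, had 4236, 2913 and 2983 FPKM in G14_37, 7188, 7242 and 6229 FPKM in G14_28, and 7836, 7884 and 7875 FPKM in Parent_28. No value of one group fell within the range of another. Such separation was common, as the groups of 71.3% to 75.8% of the tested genes did not overlap in the 3 comparisons. The mean was 3377 ± 745 FPKM in G14_37, 6886 ± 570 FPKM in G14_28 and 7865 ± 25.5 FPKM in Parent_28 (SD, n = 3 each). The spread thus differed widely between groups, with a coefficient of variation of 22.0% in G14_37, 8.27% in G14_28 and 0.324% in Parent_28, the last about as small as the counting error.

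*FGH1*, the hydrolase of the middle step, had 2793, 2253 and 2274 FPKM in G14_37, 3074, 3110.3 and 2832 FPKM in G14_28, and 3193, 3245 and 3489 FPKM in Parent_28. The groups did not overlap, as for most tested genes, but the highest G14_37 library lay only just below the lowest G14_28 library. The mean was 2440 ± 306 FPKM in G14_37, 3005 ± 151 FPKM in G14_28 and 3309 ± 158 FPKM in Parent_28 (SD, n = 3 each). This is the narrowest range over groups among the 3 genes.

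*FDH1*, the last step, had 3462, 2860.4 and 2883 FPKM in G14_37, 13292, 13341 and 12294 FPKM in G14_28, and 16929, 16088 and 17165 FPKM in Parent_28. Every G14_37 value was far below every value at 28 °C. The G14_28 and Parent_28 values did not overlap either, as for 71.3% of the tested genes. The mean was 3069 ± 341 FPKM in G14_37, 12976 ± 591 FPKM in G14_28 and 16728 ± 566 FPKM in Parent_28 (SD, n = 3 each). At 37 °C, the means of *FDH1* and *FLD1* differed by less than the spread of *FLD1* between libraries. The libraries within a group deviated in the same direction for all 3 genes in the mutant, with replicate 1 highest in G14_37 and replicate 3 lowest in G14_28. No such common order was seen in Parent_28, where *FLD1*, *FGH1* and *FDH1* had their lowest values in replicates 1, 1 and 2. In the mutant, the FPKM summed over all features deviated the same way, so this order is not particular to the 3 genes. The sum was 790873 in replicate 1 of G14_37, against 707354 and 725841 in replicates 2 and 3. In G14_28 it was 958893 in replicate 3, against 1003480 and 1002120 in replicates 1 and 2.

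**Figure D1:**
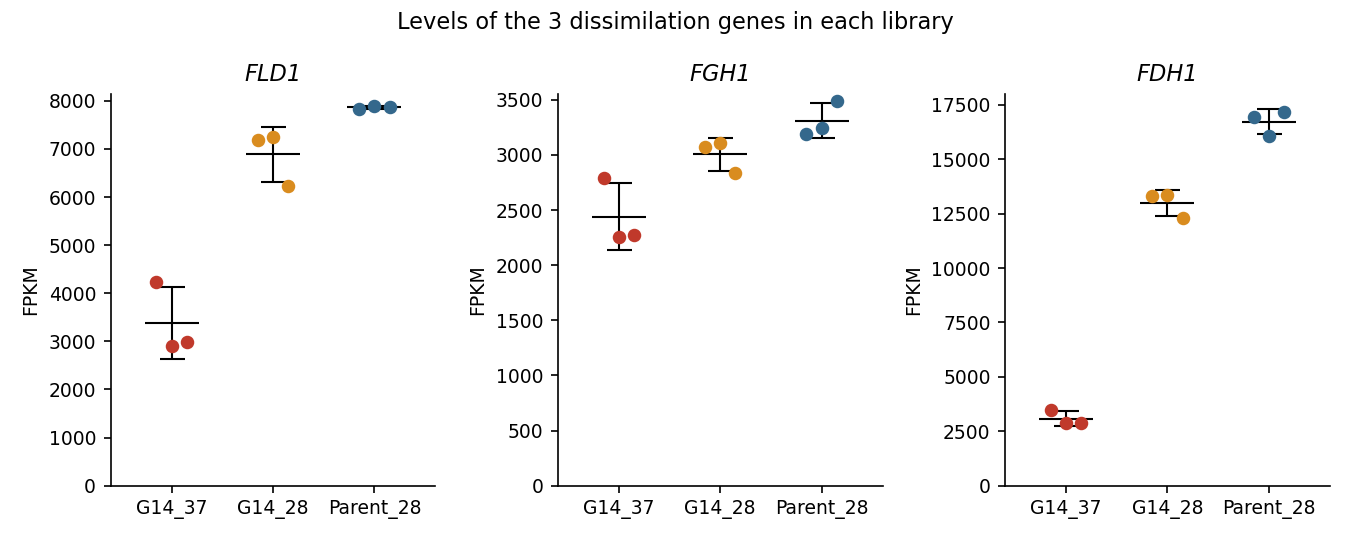
FPKM (y axis, from 0) of *FLD1*, *FGH1* and *FDH1* in the 3 libraries of G14_37, G14_28 and Parent_28; each point is a library, placed from replicate 1 on the left to replicate 3 on the right, and bars show the mean and SD. *FDH1* averages 3069 FPKM in G14_37, 12976 FPKM in G14_28 and 16728 FPKM in Parent_28, whereas *FGH1* stays between 2253 and 3489 FPKM in all 9 libraries.

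The comparison of G14_28 with Parent_28 asks how the strain itself differs during methanol induction. *FDH1* and *FLD1* fell in the mutant, both by a small amount, and *FGH1* did not pass the test. For *FDH1* the log2 fold change was -0.37 ± 0.058 (standard error) with an adjusted p of 0.00055 from limma, which is 77.5% of the parental level. For *FLD1* it was -0.20 ± 0.065, with an adjusted p of 0.026 from limma and 87.3% of the parental level. The value of *FGH1* was -0.14 (95% confidence interval -0.27 to -0.011, adjusted p = 0.054 from limma). Lower values at this threshold are common in this comparison: 36.7% of the 5448 tested genes were called lower, and the groups of 71.3% did not overlap. The majority turned with the scaling between libraries, as 1615 genes were called higher and 1997 lower as deposited, against 1844 higher and 1717 lower after scaling to the summed reads. The share of tested genes with a lower log2 fold change was 19.8% for *FDH1*, 33.5% for *FLD1* and 39.1% for *FGH1*, so none of the 3 genes stood at the edge of the distribution.

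The *FDH1* difference was called under every alternative that kept the adjusted p of 0.05 as the only criterion, with values from -0.39 to -0.32. The call on *FLD1* depended on how the spread was estimated. It was lost without Parent_28 replicate 1, 2 or 3 (adjusted p = 0.067, 0.077 and 0.069 from limma), and without G14_28 replicate 3 its log2 fold change was only -0.12 (adjusted p = 0.0087 from limma). With all 3 groups in one fit, the adjusted p of *FLD1* was 0.24 from limma, whereas limma-voom on the recovered reads gave 0.0050 for *FLD1* and 0.022 for *FGH1*. None of the 3 genes reached an absolute log2 fold change of 1, whereas 1.82% of the tested genes were lower by that amount with an adjusted p under 0.05.

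The comparison of G14_37 with G14_28 asks how the mutant differs when it is induced at the higher temperature. All 3 genes were called lower at 37 °C, *FDH1* by most and *FGH1* by least, although the direction of *FGH1* turned when values were scaled to the summed reads. The log2 fold change was -2.08 ± 0.13 (standard error) for *FDH1*, with an adjusted p of 3.0e-06 from limma, which left 23.6% of the level at 28 °C. For *FLD1* it was -1.05 ± 0.16, with an adjusted p of 0.00058 from limma and 48.4% of the level at 28 °C. For *FGH1* it was -0.31 ± 0.11, with an adjusted p of 0.038 from limma and 80.9% of the level at 28 °C. At this threshold 36.2% of the 5459 tested genes were called lower, and the groups of 73.5% did not overlap. An absolute log2 fold change above 1 was reached in addition by *FDH1* and *FLD1*, against a background of 7.05% called lower by both criteria. *FLD1* lay close to that limit, with -0.95 without G14_37 replicate 2 and -0.97 without G14_37 replicate 3. A lower log2 fold change than that of *FDH1* was found for 62 tested genes (1.14%), against 358 (6.56%) for *FLD1* and 1613 (29.5%) for *FGH1*.

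Without G14_37 replicate 1, the means of G14_37 were 2872 FPKM for *FDH1*, 2948 FPKM for *FLD1* and 2263 FPKM for *FGH1*. The log2 fold changes were then larger in size, at -2.17 for *FDH1*, -1.22 for *FLD1* and -0.41 for *FGH1* (adjusted p = 2.6e-07, 8.1e-06 and 0.0012 from limma). The call on *FGH1* was lost without G14_37 replicate 2 or 3 (adjusted p = 0.099 and 0.12) and without G14_28 replicate 1, 2 or 3 (adjusted p = 0.12, 0.13 and 0.060, all from limma). It also depended on the scaling between libraries. The library sizes in the deposited values were above the recovered reads in G14_37 (1.15 to 1.23 times) and below them in the libraries at 28 °C (up to 0.925 times in G14_28 and up to 0.879 times in Parent_28). Scaling to the summed reads moved the median log2 fold change of all tested genes between the temperatures from -0.025 to 0.36. On that scale *FGH1* had 0.089 (adjusted p = 0.35 from limma), *FLD1* had -0.65 and *FDH1* had -1.69, and both *FLD1* and *FDH1* were still called lower. The shares of recovered reads restate that scale in another unit, as both divide by the summed reads. *FGH1* took 0.262% ± 0.024 in G14_37 and 0.246% ± 0.0086 in G14_28 (SD, n = 3 each). *FLD1* took 0.458% ± 0.085 in G14_37 and 0.713% ± 0.048 in G14_28 (SD, n = 3 each). *FDH1* took 0.402% ± 0.031 in G14_37 and 1.29% ± 0.039 in G14_28 (SD, n = 3 each). Scaling multiplies all values of a library by the same factor, so values relative to the median of all tested genes could hardly move. They went from -2.06 to -2.05 for *FDH1*, from -1.02 to -1.01 for *FLD1* and from -0.28 to -0.27 for *FGH1*, which is no test of the scaling.

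Between G14_37 and Parent_28, strain and temperature changed together and cannot be told apart, and this comparison shares its libraries with the 2 above. Of *FDH1*, 18.3% of the parental level was left, at a log2 fold change of -2.45 ± 0.12 (standard error) and an adjusted p of 8.6e-07 from limma. The log2 fold change was -1.24 ± 0.15 for *FLD1* (adjusted p = 0.00013) and -0.45 ± 0.11 for *FGH1* (adjusted p = 0.0060, both from limma). At this threshold 39.1% of the 5451 tested genes were called lower, and the groups of 75.8% did not overlap. *FDH1* and *FLD1* also passed an absolute log2 fold change of 1, as did 8.48% of the tested genes in this direction. Without G14_37 replicate 1, the log2 fold changes were -2.54 for *FDH1*, -1.42 for *FLD1* and -0.55 for *FGH1*. With values scaled to the summed reads, the median of all tested genes moved from -0.033 to 0.41, and *FGH1* had a log2 fold change of 0.0016 (adjusted p = 0.99 from limma), against -0.79 for *FLD1* and -2.00 for *FDH1*.

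**Figure D2:**
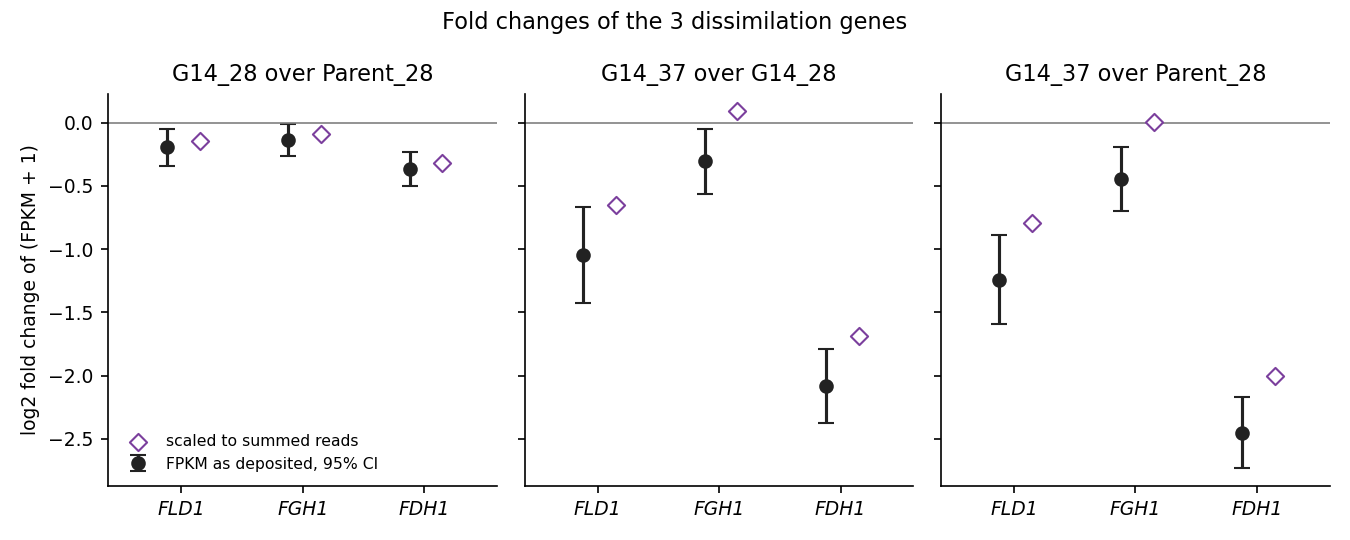
Log2 fold change of (FPKM + 1) (y axis) of the 3 genes in the 3 comparisons. Filled circles with 95% confidence intervals are from limma on the deposited values, and open diamonds are the same values after scaling to the summed reads; between G14_37 and G14_28, *FGH1* lies at -0.31 on the first scale and at 0.089 on the second, while *FDH1* lies at -2.08 and -1.69.

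The ratio of 2 genes within a library does not depend on the scaling between libraries, and it was used to compare the steps of the pathway with each other. The ratio of *FDH1* to *FGH1* was lowest in G14_37 and highest in Parent_28. It was 1.24, 1.27 and 1.27 in G14_37, 4.32, 4.29 and 4.34 in G14_28, and 5.30, 4.96 and 4.92 in Parent_28. The libraries of a group lay close together, also replicate 1 of G14_37, whose single genes stood above the other libraries. The ratio was 3.43-fold lower in G14_37 than in G14_28, and its log2 difference of -1.78 was large beside a pooled SD of 0.015. It was 1.17-fold lower in G14_28 than in Parent_28, with a log2 difference of -0.23 and a pooled SD of 0.042.

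The ratio of *FDH1* to *FLD1* was 0.817, 0.982 and 0.967 in G14_37, 1.85, 1.84 and 1.97 in G14_28, and 2.16, 2.04 and 2.18 in Parent_28. It was below 1 in every G14_37 library and above 1 in every library at 28 °C. The log2 difference was -1.04 between G14_37 and G14_28 and -0.17 between G14_28 and Parent_28, with pooled SDs of 0.11 and 0.054. The ratio of *FGH1* to *FLD1* averaged 0.732 ± 0.063 in G14_37, 0.437 ± 0.015 in G14_28 and 0.421 ± 0.020 in Parent_28 (SD, n = 3 each). Here the libraries of G14_28 and Parent_28 overlapped, and the log2 difference of 0.056 was no larger than the pooled SD of 0.058. It was 0.028 without G14_28 replicate 3 and 0.094 without Parent_28 replicate 3. Over the 3 ratios and 3 comparisons, a two-sided exact permutation test gave p = 0.1 in 8 of 9 tests and p = 0.3 for *FGH1* to *FLD1* between the strains (adjusted p = 0.11 and 0.3). A p of 0.1 is the smallest that 3 libraries against 3 allow, so no ratio could pass a threshold of 0.05.

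**Figure D3:**
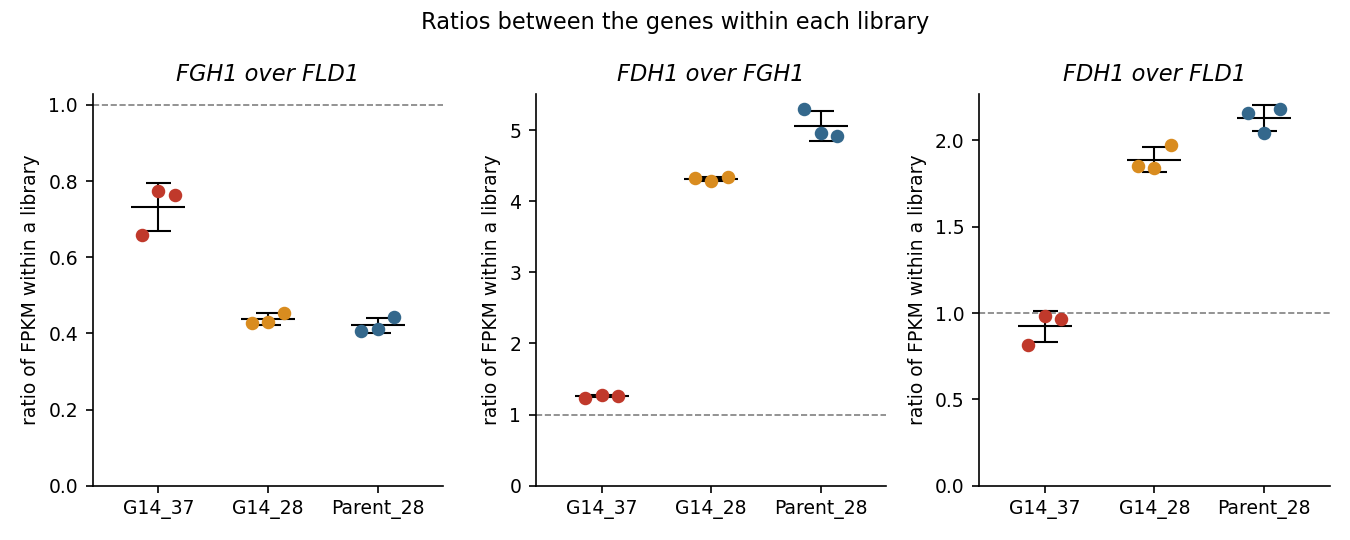
Ratio of FPKM within a library (y axis, from 0) for each pair of genes in G14_37, G14_28 and Parent_28; points are libraries, bars show the mean and SD, and the dashed line marks equal levels. The ratio of *FDH1* to *FGH1* averages 1.26 in G14_37, 4.32 in G14_28 and 5.06 in Parent_28, and that of *FDH1* to *FLD1* crosses from above 1 at 28 °C to below 1 at 37 °C.

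Against all tested genes, *FDH1* lay in the lower tail at 37 °C and the other genes of the pathway did not lie as far out. The middle 90% of the log2 fold changes ran from -1.18 to 0.91 between G14_37 and G14_28, and from -0.73 to 0.69 between G14_28 and Parent_28. Among the 115 features with a mean of at least 1000 FPKM over all 9 libraries, the median between G14_37 and G14_28 was -0.87. Of these features, 91 were called lower and 10 higher. In this set 14 features fell more than *FDH1*, 48 more than *FLD1* and 88 more than *FGH1*. A fall like that of *FLD1* was thus common among abundant features, and *FGH1* fell less than most of them.

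**Figure D4:**
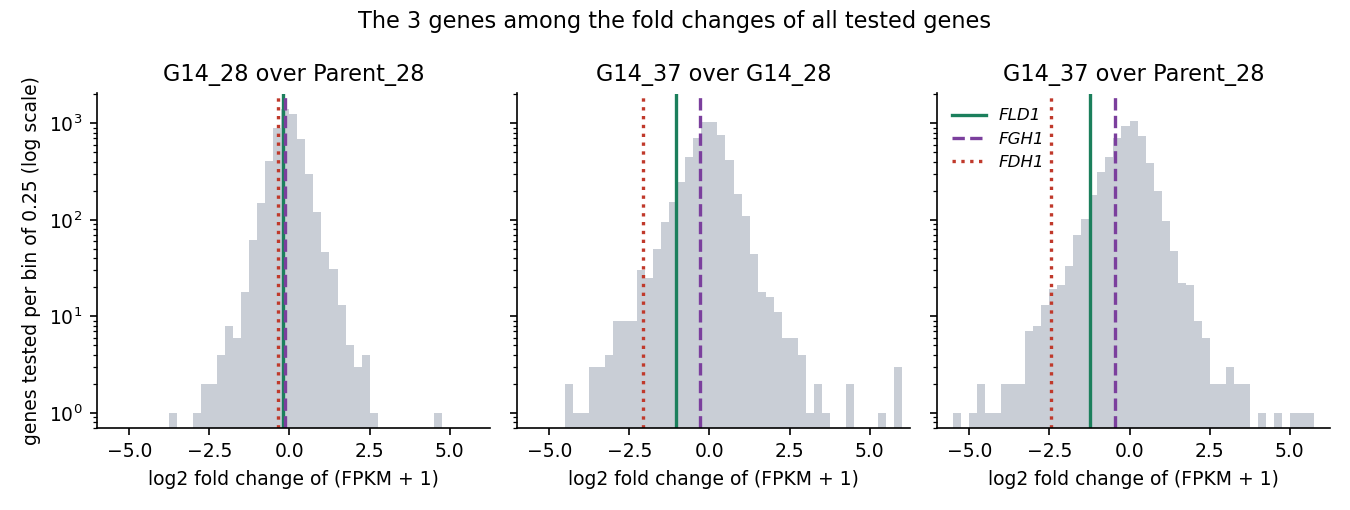
Number of tested genes (y axis, log scale) by log2 fold change of (FPKM + 1) (x axis, bins of 0.25) in the 3 comparisons, with vertical lines at *FLD1* (solid), *FGH1* (dashed) and *FDH1* (dotted). Between G14_28 and Parent_28 all 3 lines lie within the bulk of the genes, and in the comparisons with G14_37 the line of *FDH1* lies in the lower tail, at -2.08 and -2.45.

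The profiles of the 3 genes over the 9 libraries were correlated, but many other features were nearer to each of them. The Pearson correlation of log2(FPKM + 1) was 0.98 between *FLD1* and *FDH1*, 0.96 between *FLD1* and *FGH1* and 0.91 between *FGH1* and *FDH1*. These values are a description over 9 libraries in 3 groups, which share one scaling, and differences between the groups carry most of them. Among 5370 features with a mean of at least 5 FPKM, 582 had a correlation above 0.95 with *FDH1*, 396 with *FLD1* and 74 with *FGH1*. In likeness to *FLD1*, *FDH1* ranked 75th and *FGH1* 249th. In likeness to *FGH1*, *FLD1* ranked 33rd and *FDH1* 315th, and in likeness to *FDH1*, *FLD1* ranked 274th and *FGH1* 873rd. The features with the highest mean correlation with the 3 genes were gene-PP7435_CHR4-0111 (0.98) and gene-PP7435_CHR4-1983 (0.98), for which the table gives no gene name. The first had 902, 591 and 624 FPKM in G14_37, 2117, 2110 and 1562 FPKM in G14_28, and 2461, 2647 and 2772 FPKM in Parent_28. It was chosen for its likeness to the 3 genes over these same libraries. Its high replicate 1 of G14_37 and low replicate 3 of G14_28 are therefore no separate result.

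The stretch of chromosome 3 that holds the 3 genes had medians close to those of all tested genes. Taken in the order of tag numbers, the 167 tested genes from *FLD1* to *FGH1*, which include *FDH1*, had a median log2 fold change of -0.0035 between G14_37 and G14_28, against -0.025 over all tested genes. Between G14_28 and Parent_28 the median of this stretch (166 genes) was -0.054, against -0.037 over all. Within 5 tag numbers on either side of *FDH1*, 8 genes were tested between G14_37 and G14_28, with log2 fold changes from -1.05 to 1.06 (2 called lower and 3 higher), all above the -2.08 of *FDH1*. The 10 neighbours of *FLD1* ranged from -1.12 to 0.72 with 1 called lower and 5 higher. The 10 neighbours of *FGH1* ranged from -1.47 to 0.20, with 6 called lower and 1 higher, and their median of -0.53 was below the -0.31 of *FGH1*. Over all tested genes, 36.2% were called lower and 1810 of 5459 higher between G14_37 and G14_28. Tag order was not checked against genome coordinates.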

How the data were processed

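RNA-seq values of 9 libraries were used. The submitters' processing notes name CASAVA, HISAT2 (2.0.5) and featureCounts (1.5.0-p3). The genome build, annotation and strand setting of the counting are not given in the sources used here. The authors deposited 1 table whose unit is inferred from the values to be FPKM, with a scaling between libraries included. Samples are labelled as strain GS115, whereas locus tags carry the prefix PP7435. None of the tags matched the RefSeq table of GS115 (0 matches), so a planned list of other methanol genes was not run.

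Because FPKM are whole multiples of a step set by gene and library, reads and lengths could be worked back for 5475 of 5516 features above 0 (99.9% of values, tolerance 0.02 reads). The lengths were 1140 bases for *FLD1*, 900 for *FGH1* and 1098 for *FDH1*. Reads entered only the alternatives, shares and depth. The study used a count model, but the deposited values are not counts. The main test was therefore limma (version 3.58.1, R 4.3.3, intensity trend) on log2(FPKM + 1), a scale that understates changes of low genes. Limma-voom on the recovered reads was run as an alternative. Only the groups compared were fitted, and a gene was tested if its mean reached 1 FPKM in either group. Benjamini-Hochberg adjustment ran over all tested genes, and an adjusted p under 0.05 was called. Ratios were tested by exact permutation (Python 3.11.15, scipy 1.17.1). Steps were tested on simulated data, built from the recovered lengths and library sizes with the same spread in all groups. These data do not check the recovery on the deposited values and do not cover the wider spread of G14_37. The genes, lists and alternatives were chosen with earlier results of these data known. Named genes are the 3 members and the 2 features with the most alike profile. Replicates are biological replicates according to the study, and no pairing is described.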

Additional observations from a re-analysis of the deposited data

How the results depend on the processing

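The direction of each log2 fold change was kept under all alternatives run, except that scaling to the summed reads gave *FGH1* 0.089 between G14_37 and G14_28 (adjusted p = 0.35 from limma) and 0.0016 between G14_37 and Parent_28 (adjusted p = 0.99), in place of -0.31 and -0.45. Scaling also moved the split of all calls, to 1844 higher and 1717 lower genes between the strains (1615 and 1997 as deposited), to 3397 higher and 887 lower genes between the temperatures (1810 and 1977 as deposited), and to 3525 and 951 between G14_37 and Parent_28 (1805 and 2134 as deposited). *FLD1* between the strains, at -0.20, was not called without a filter on low values (adjusted p = 0.064 from limma) or with all 3 groups in one fit (adjusted p = 0.24), and *FGH1*, at -0.14, was called with limma-voom (adjusted p = 0.022). *FGH1* between the temperatures, at -0.31, was not called without the filter (adjusted p = 0.057 from limma) or with the replicate number as a block (adjusted p = 0.0504). The block kept all other calls on the 3 genes, and 3569, 3845 and 3924 genes were called with it in the 3 comparisons, against 3612, 3787 and 3939. Libraries with the same number deviated together only weakly, with correlations of 0.032 to 0.10 for the strains, of -0.18 to 0.24 for the temperatures and of -0.017 to 0.13 for G14_37 and Parent_28, so the numbers were not taken as pairs; 4, 3 and 2 of 6 libraries correlated best with their own number.

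When an absolute log2 fold change above 1 was also required, 195, 601 and 671 genes were called. *FDH1* (-0.37) and *FLD1* (-0.20) between the strains and *FGH1* between the temperatures (-0.31) and between G14_37 and Parent_28 (-0.45) then lost their calls. With each replicate left out in turn, the log2 fold change of *FLD1* ranged from -0.23 to -0.12 for the strains, and that of *FGH1* from -0.41 to -0.25 for the temperatures; *FDH1* stayed called throughout, from -0.39 to -0.33 and from -2.17 to -2.04. The log2 fold change of *FLD1* between the temperatures ranged from -1.22 to -0.95. For the log2 ratios between the strains, the ranges were 0.028 to 0.094 for *FGH1* over *FLD1*, -0.25 to -0.19 for *FDH1* over *FGH1* and -0.20 to -0.15 for *FDH1* over *FLD1*. Between the temperatures they were 0.70 to 0.81, -1.78 to -1.77 and -1.09 to -0.95 in the same order, and between G14_37 and Parent_28 they were 0.75 to 0.87, -2.03 to -1.97 and -1.26 to -1.13. The causes of these moves were not tested. The lowest read number of the 3 genes in a library was 30965.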
